A study of Mus musculus with 6 samples.

Results

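The genes described here are 31 members of the cellular response to DNA double-strand breaks, from the proteins that bind a broken end to the kinases that halt the cell cycle, out of 55487 genes in the deposited matrix. They were chosen by symbol for their known roles and not by their values, though earlier results of these data were known. Of the 31, 30 were found by symbol, and H2afx was found by its gene ID, since the matrix lists it under its newer symbol H2ax. RNA was measured in kidney endothelial cells of 6 mice that were moved at 8 weeks of age to a high-fat diet (60% of calories from fat) and kept on it for 4 weeks. The 3 I-PpoI mice carried VE-cadherin Cre and a STOP-I-PpoI allele that Cre unlocks, and the 3 control mice were wild-type littermates on the same diet. The endonuclease I-PpoI cuts both strands of DNA at its recognition site, and VE-cadherin Cre acts in endothelium and in blood cells that descend from it. The genotype labels write the locus of the I-PpoI allele as ROSA26, ROSA27 and ROSA28 in I-PpoI mice 1, 2 and 3. They do not say whether these are different loci or a labelling slip, and the transgene itself was not measured. Cells were taken from digested kidneys with magnetic beads against CD31, so the libraries are bulk RNA of the sorted fraction, and all 6 carry the same batch label.

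When both strands of DNA break, the MRN complex (Mre11a, Rad50, Nbn) and the Ku dimer (Xrcc5, Xrcc6) bind the ends, and the kinases Atm, Atr and Prkdc are activated there. Atm phosphorylates the histone H2afx, on which Mdc1, the ubiquitin ligases Rnf8 and Rnf168, and Trp53bp1 assemble. The ends are then either joined directly, through Ku, Prkdc and Lig4, or cut back to single strands and repaired by copying a sister chromatid, through Brca1, Palb2 and Brca2. Recombination works mainly in dividing cells, and most endothelial cells of an adult kidney are quiescent. Much of the pathway acts by phosphorylation and ubiquitylation of proteins already present, which a measurement of RNA does not read.

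The 6 libraries were unequal in depth, strand, cell content and sex-linked RNA. Fragments recovered from the FPKM values (fragments scaled by exon length and library total) numbered 14081222 to 16954480 in a control library. I-PpoI mouse 3 was nearly as deep, at 13324303, while I-PpoI mice 1 and 2 held 1590957 and 834149. In those 2 shallow libraries 68.2% and 70.6% of mitochondrial fragments were assigned to minus-strand genes, and 14.7% and 10.02% of all fragments to gene models annotated as antisense. No other library exceeded 0.0821% for the former or 0.225% for the latter. The strand setting of the counting is not given in the sources used here, so it is not known whether a sense FPKM means the same in I-PpoI mice 1 and 2 as in the others. The endothelial marker list summed to 2457 to 2896 FPKM in the controls and to 1921, 643 and 1196 FPKM in I-PpoI mice 1, 2 and 3, with none of its 10 genes at 0. The proximal tubule list summed to 713 to 1414 FPKM in the controls and to 287, 499 and 1477 FPKM in the I-PpoI mice, with none of its 9 genes at 0. Its receptor Lrp2 reached 66.5 FPKM in I-PpoI mouse 3 against at most 3.65 in a control. Ddx3y, a Y-linked gene, had 959 to 1672 fragments in the controls and 20, 0 and 0 in the I-PpoI mice, while Xist had 0, 70 and 4739 in the I-PpoI mice and at most 4 in a control. Not all of these set the whole I-PpoI group apart: mouse 3 was like the controls in total depth and strand, and mouse 1 had Ddx3y but no Xist fragments. The parts of depth, strand, cell content, sex and I-PpoI genotype still cannot be told apart in the comparisons of groups. In bulk RNA, fewer cells of a type and less RNA per cell cannot be told apart either.

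The members rested on few fragments in the 2 shallow libraries. The median member had 172 to 231 fragments in a control library and 118 in I-PpoI mouse 3, but only 8 and 3 in the libraries of I-PpoI mice 1 and 2. Under 10 fragments were counted for 19 of the 31 members in the first of these and for 25 in the second. In I-PpoI mouse 2, 8 members had none, which allows up to 3 fragments each and covers counting error only. Members of low level are therefore better resolved in I-PpoI mouse 3 and the controls. Even there the lowest rest on few fragments. In I-PpoI mouse 3, 4 members had under 10, and the lowest member had 3. The lowest member of a control library had 6 to 13.

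In the controls, which lack the transgene, the members covered a range from 16.1 to 0.103 FPKM. H2afx, the histone variant marked at breaks, stood highest at 16.1 ± 2.73 FPKM (SD, n = 3). Parp1, which senses strand breaks and adds poly(ADP-ribose), followed at 10.2 ± 0.848, and Nbn, the MRN subunit that docks on Mdc1 and Atm, at 8.77 ± 1.95. Next came the adaptor Mdc1 (6.61 ± 1.89), the ligase Rnf168 (6.57 ± 1.33) and the Ku80 gene Xrcc5 (5.07 ± 0.273). Only these 6 members averaged at least 5 FPKM, and all 6 act at the broken end or on the chromatin around it.

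Another 13 members averaged 1 to 5 FPKM in the controls, from Trp53bp1 (3.80 ± 0.857), the reader of the Rnf168 mark, to Lig4 (1.27 ± 0.423), the ligase of end joining. The remaining 12 were below 1 FPKM, and 9 of those below 0.5 FPKM. These 9 were Bard1, Palb2, Blm, Rad54l, Fancd2, Brca2, Chek1, Brca1 and Exo1, which serve resection, recombination, crosslink repair or the replication checkpoint. Brca1, the organiser of recombination, had 0.138, 0.04997 and 0.131 FPKM in controls 1, 2 and 3, and Exo1, a nuclease of long-range resection, had 0.132, 0.135 and 0.0420. Those 2 lowest genes rest on 44 and 40 fragments over all 3 controls together. Rad52, which anneals single strands, was the exception among recombination genes at 2.76 ± 0.489 FPKM. Neighbours in this order often overlapped: Mdc1 spanned 4.56 to 8.27 FPKM across the controls and Rnf168 5.26 to 7.92. Ranked by fragments instead of FPKM, 6 of the 10 highest members stayed among the 10 highest, since long genes collect more fragments.

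**Figure D1:**
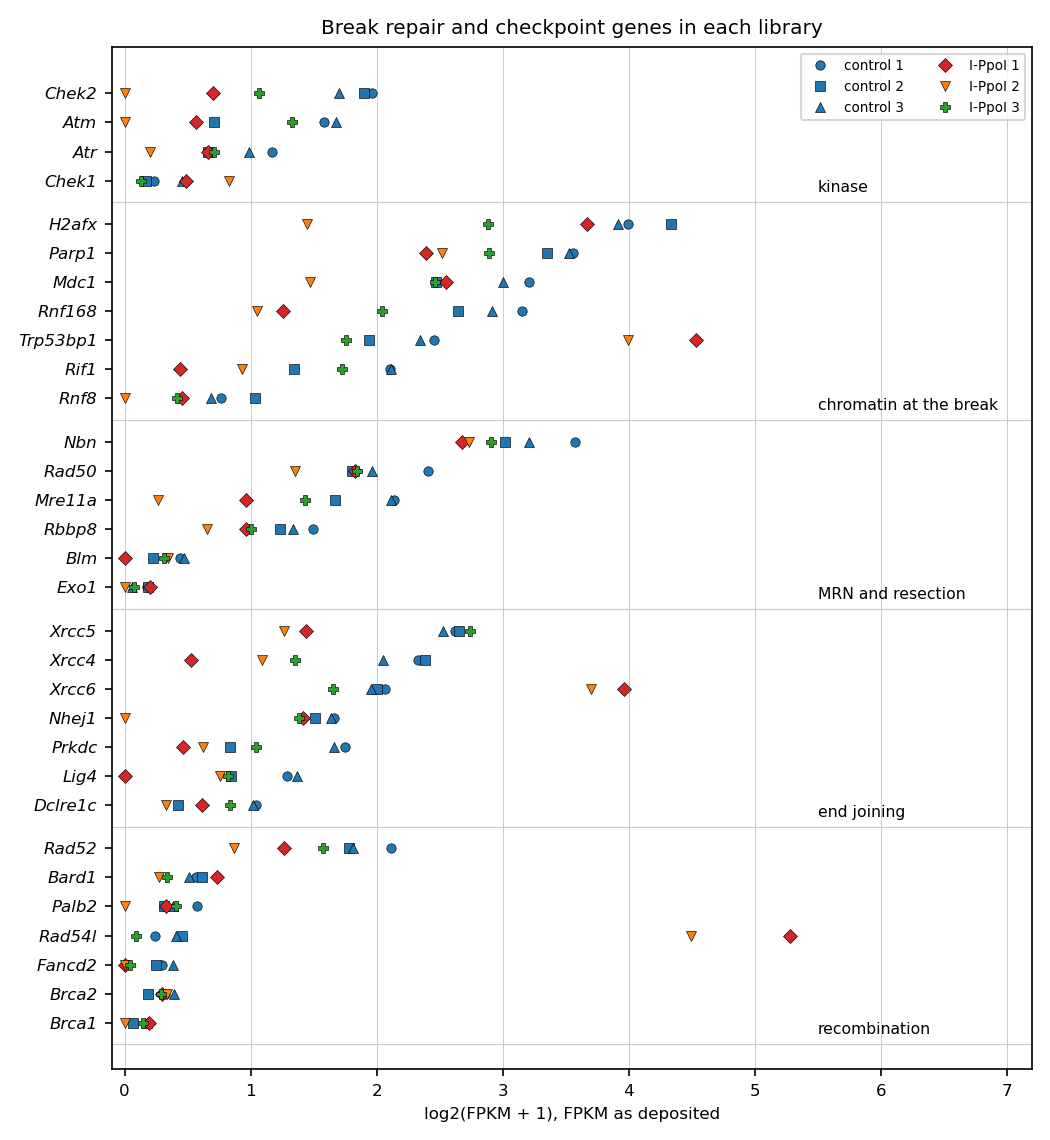
Each row is 1 of the 31 members, grouped by role and ordered by control mean, and each point is 1 library on a log2(FPKM + 1) axis, with controls in blue and I-PpoI mice 1, 2 and 3 in red, orange and green. Rad54l, Xrcc6 and Trp53bp1 stand far to the right in I-PpoI mice 1 and 2, while most other members lie left of the controls there.

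Many members share their start with a gene on the other strand, and the neighbour was usually the more abundant transcript. In GENCODE M21, 10 of the 31 members (32.3%) start within 1000 bases of the start of a protein-coding gene that runs the other way. The share was 10.9% over 21938 nuclear coding genes and 16.3% over the coding genes that passed the filter on low values. In the controls the neighbour was higher in 8 of the 10 pairs. Brca1 averaged 0.106 ± 0.0490 FPKM and its neighbour Nbr1, an autophagy receptor whose start lies 194 bases away, 24.0 ± 5.37, a ratio of 226. The same ratio was 123 for Emc3 over Fancd2 (starts 30 bases apart), 56.5 for Dctn5 over Palb2 (56 bases) and 41.7 for Pomgnt1 over Rad54l (150 bases). It was smaller for Abhd13 over Lig4 (6.06), Mcm4 over Prkdc (4.40), Hscb over Chek2 (3.98) and Npat over Atm (2.00). Where the annotated starts overlap, the member was the higher gene: Tmem167 reached 0.763 times the level of Xrcc4 and Ankrd49 0.478 times that of Mre11a. In each of these 10 pairs the higher gene was the same in all 3 controls.

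**Figure D2:**
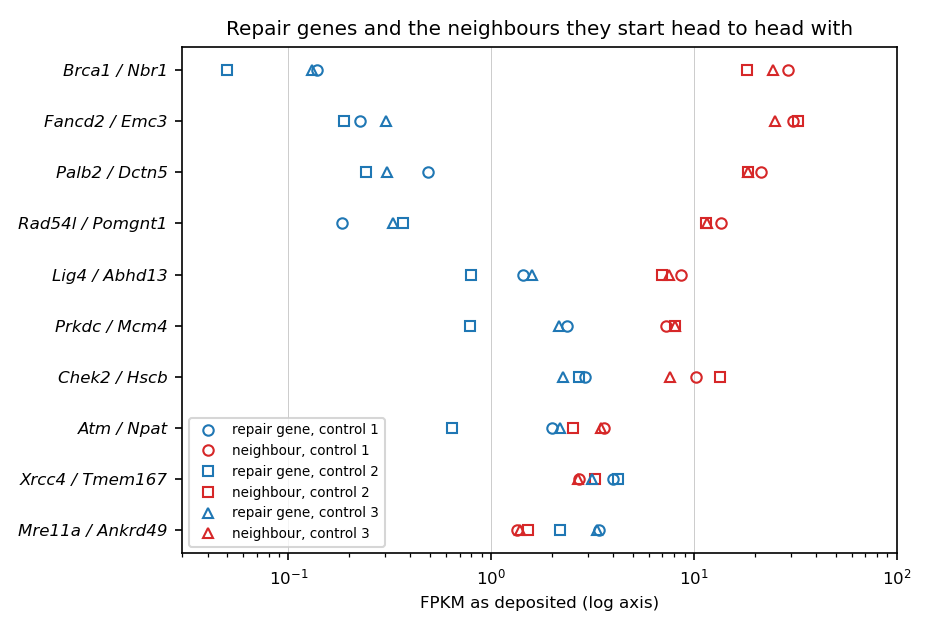
Each row is a member and the coding gene that starts within 1000 bases of it in the opposite direction, with the FPKM of each control library on a log axis (member in blue, neighbour in red). The neighbour lies to the right in 8 of 10 pairs, by 226-fold for Brca1 and Nbr1, and to the left only for Xrcc4 and Mre11a.

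The start regions of 5 members are shown because 4 of them hold both starts of such a pair and 2 of them hold a word bound by E2F factors, which act at genes of the cell cycle. Each is 300 bases of RefSeq sequence on GRCm38.p6, from 250 before to 50 after the start, printed along the member's own strand. Capitals mark every match to CCAAT or to the E2F words TTTGGCGC, TTTCCCGC, TTTGCCGC and TTTCGCGC, on either strand. Brca1 is at chr11:101551906-101552205, minus strand, and the start of Nbr1 falls on base 57 of the window. Palb2 is at chr7:122132897-122133196, minus strand, with the start of Dctn5 on base 156. Rad54l is at chr4:116123641-116123940, minus strand, with the start of Pomgnt1 on base 101. Chek2 is at chr5:110839733-110840032, plus strand, with the start of Hscb on base 45. Brca2 is at chr5:150522371-150522670, plus strand, and has no such partner.
Brca1: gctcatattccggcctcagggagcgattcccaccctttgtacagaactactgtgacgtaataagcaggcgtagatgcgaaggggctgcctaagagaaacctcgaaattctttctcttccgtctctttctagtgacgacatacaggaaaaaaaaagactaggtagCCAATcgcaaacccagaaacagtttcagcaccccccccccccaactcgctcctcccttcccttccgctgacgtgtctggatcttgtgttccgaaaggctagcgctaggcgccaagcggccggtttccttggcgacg
Palb2: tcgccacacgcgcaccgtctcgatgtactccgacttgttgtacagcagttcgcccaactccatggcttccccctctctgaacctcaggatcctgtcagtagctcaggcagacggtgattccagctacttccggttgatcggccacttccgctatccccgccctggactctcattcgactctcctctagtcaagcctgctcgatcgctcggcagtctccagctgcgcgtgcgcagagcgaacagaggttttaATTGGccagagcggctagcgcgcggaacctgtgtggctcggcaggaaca
Rad54l: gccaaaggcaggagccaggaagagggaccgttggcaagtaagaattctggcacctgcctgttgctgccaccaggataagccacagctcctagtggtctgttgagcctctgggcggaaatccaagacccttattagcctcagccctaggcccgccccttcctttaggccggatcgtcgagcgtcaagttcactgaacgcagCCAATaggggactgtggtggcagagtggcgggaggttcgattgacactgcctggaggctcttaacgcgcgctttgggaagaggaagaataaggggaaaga
Chek2: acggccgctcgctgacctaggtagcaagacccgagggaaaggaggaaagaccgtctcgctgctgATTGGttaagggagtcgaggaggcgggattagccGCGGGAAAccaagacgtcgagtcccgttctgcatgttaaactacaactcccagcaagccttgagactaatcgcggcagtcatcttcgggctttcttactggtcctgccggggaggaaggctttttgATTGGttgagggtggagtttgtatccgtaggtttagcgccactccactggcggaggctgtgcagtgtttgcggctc
Brca2: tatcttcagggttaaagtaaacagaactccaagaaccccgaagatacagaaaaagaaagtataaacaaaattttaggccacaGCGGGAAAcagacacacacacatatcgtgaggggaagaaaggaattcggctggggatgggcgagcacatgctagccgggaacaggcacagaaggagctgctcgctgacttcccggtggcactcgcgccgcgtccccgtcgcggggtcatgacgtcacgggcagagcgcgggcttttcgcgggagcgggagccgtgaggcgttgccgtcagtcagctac
Brca1, Palb2 and Rad54l each hold 1 CCAAT box and no E2F word, Chek2 holds both kinds, and Brca2 holds an E2F word only.

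Start regions were matched for 23 of the 31 members. An E2F word was present in 5 of them (21.7%: Bard1, Brca2, Chek2, Mdc1 and Xrcc6) and in 2.26% of 32851 promoters of the same length. Among the 15040 promoters with at least as many CpG as the poorest member (9), the share was 4.33%. CCAAT was present in 12 members' regions (52.2%) against 37.4% of all promoters, and the consensus word of NRF1 in Lig4 alone (4.35%) against 0.971%. The members' regions had a median GC content of 58.7% and 22 CpG, against 52.7% and 7 over all promoters. These matches describe letters in the window and were not tested as binding sites. For Xrcc6 the window lies 28534 bases from the start of the gene model in the matrix.

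The main comparison asked whether the level of these genes differed between I-PpoI and control mice. None was called. Of the 31 members, 19 averaged at least 1 FPKM over the 6 libraries and were tested, and limma on log2(FPKM + 1) with Benjamini-Hochberg adjustment over all genes called 0 of them at 0.05, where 0.0% of all 14962 tested genes were called. At an unadjusted p below 0.05 there were 6 members, all lower, while 36.8% of all tested genes passed that value and 32.5% passed it as lower, and limma-voom on recovered fragments also called 0. The log2 fold change was below 0 for 16 of the 19 and above 0 for 3, with a median of -0.71 beside -0.65 over all tested genes, of which 71.6% were below 0. In FPKM as deposited, 13 of 31 members (10 of the 19 tested) were lower in every I-PpoI mouse than in every control, as were 45.1% of tested genes, and 0 were higher in every I-PpoI mouse, against 2.24%. Among 11658 protein-coding genes fitted alone, 84.6% were below 0, with a median of -0.78, and the members' split was near that share. The members' other shares as deposited were near those of all tested genes. With median-of-ratios scaling the split was 14 members below 0 and 5 above, with a median of -0.14. On that scale 49.2% of all tested genes were below 0, with a median of 0.02. Voom turned the split, with 12 of the 19 above 0, 7 below and a median of 0.15. Over all genes in the voom fit 46.7% were below 0, with a median of 0.04. Rad54l passed the filter only through I-PpoI mice 1 and 2, and the other 12 members, all below 1 FPKM on average, have no test. With array weights limma called 10 of the 19 members (3 higher, 7 lower), where 45.6% of all tested genes were called, 18.6% as higher and 27.0% as lower. Without I-PpoI mouse 3 it called 11 (3 higher, 8 lower), where 56.4% of genes were called, 20.0% as higher and 36.4% as lower. On a common FPKM total it called 6, all lower, as it did 31.8% of genes.

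**Figure D3:**
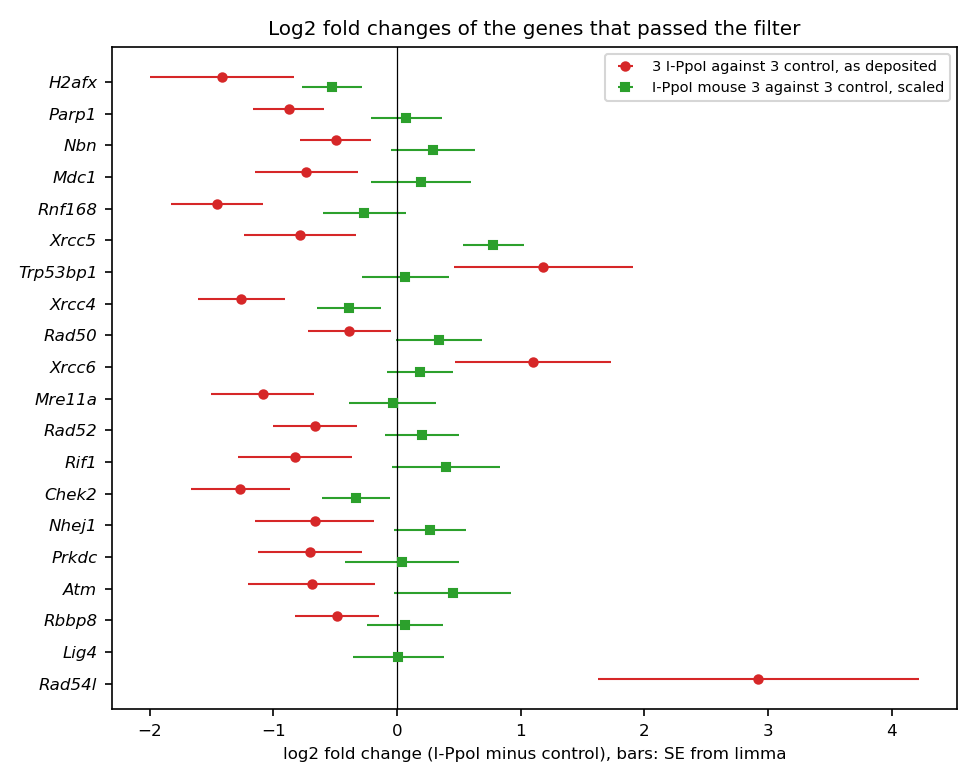
Each row is a member that passed the filter in at least 1 of the comparisons, with the log2 fold change of I-PpoI over control on the log2(FPKM + 1) scale and its SE from limma, in red for all 6 libraries as deposited and in green for I-PpoI mouse 3 against the 3 controls on a common nuclear coding total. Red points lie mostly below 0, with a median of -0.71, and green points lie on both sides of 0, more often above, with a median of 0.08.

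Among the proteins that build on broken chromatin, H2afx stood at 14.9, 19.2 and 14.1 FPKM in controls 1, 2 and 3 and at 11.7, 1.72 and 6.40 in I-PpoI mice 1, 2 and 3. All 3 I-PpoI values lay below the lowest control, and the spread among them was wider than among controls, with a log2 fold change of -1.42 (SE 0.58, limma adjusted p = 0.135). Rnf168, which spreads ubiquitin on H2A around the break, had 7.92, 5.26 and 6.55 FPKM in the controls and 1.40, 1.07 and 3.11 in the I-PpoI mice. The groups did not overlap, and its log2 fold change of -1.46 (SE 0.37, limma adjusted p = 0.124) rested on 10 and 4 fragments in I-PpoI mice 1 and 2. Parp1 had 10.8, 9.20 and 10.5 FPKM against 4.24, 4.74 and 6.42, again without overlap (log2 fold change -0.88, SE 0.29, limma adjusted p = 0.124). Mdc1, the platform that binds phosphorylated H2afx, overlapped between groups, with 4.56 FPKM in control 2 and 4.87 in I-PpoI mouse 1. Rif1, which acts with Trp53bp1 to hold back resection, had 3.31, 1.54 and 3.34 against 0.356, 0.909 and 2.30 FPKM, with control 2 inside the I-PpoI range. Rnf8, the ligase that acts before Rnf168, was below the filter, at 0.703, 1.04 and 0.610 in the controls and 0.373, 0 and 0.333 in the I-PpoI mice.

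The MRN subunits differed in how far their groups separated. Mre11a, the nuclease, had 3.39, 2.18 and 3.32 FPKM in the controls and 0.947, 0.201 and 1.70 in the I-PpoI mice, with no overlap (log2 fold change -1.09, SE 0.42, limma adjusted p = 0.131). Nbn had 10.9, 7.13 and 8.27 against 5.42, 5.65 and 6.49 FPKM, also without overlap. Rad50, the ATPase that bridges the ends, had 4.31, 2.499 and 2.90 against 2.55, 1.55 and 2.58 FPKM, and 2 I-PpoI mice exceeded control 2. With median-of-ratios scaling the log2 fold changes of Nbn (0.25) and Rad50 (0.22) were above 0. Rbbp8 (CtIP), which starts resection with MRN, ranged from 1.35 to 1.82 FPKM in the controls and from 0.572 to 1.01 in the I-PpoI mice. The resection factors Exo1 and Blm were at most 0.148 and 0.390 FPKM in any library.

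Of the 7 genes of direct end joining, 3 were lower in every I-PpoI mouse than in every control, beside 45.1% of tested genes, and none was called. Xrcc4, the scaffold of the ligase, had 4.01, 4.22 and 3.14 FPKM in the controls and 0.444, 1.13 and 1.55 in the I-PpoI mice, with groups well apart (log2 fold change -1.26, SE 0.35, limma adjusted p = 0.124). The values of I-PpoI mice 1 and 2 rest on 3 and 4 fragments. Its partner Lig4 had 1.44, 0.792 and 1.59 FPKM against 0, 0.688 and 0.765, and Nhej1 (XLF), which aligns the ends, 2.16, 1.84 and 2.11 against 1.67, 0 and 1.61. Prkdc, the catalytic subunit of DNA-PK, ran from 0.787 to 2.37 FPKM in the controls and from 0.378 to 1.06 in the I-PpoI mice, so the groups overlapped. Dclre1c (Artemis), the nuclease that opens hairpins, overlapped too, at 0.343 to 1.06 against 0.256 to 0.789. The 2 Ku genes went apart: Xrcc5 had 5.15, 5.30 and 4.77 FPKM in the controls and 1.71, 1.40 and 5.68 in the I-PpoI mice, while Xrcc6 was high in I-PpoI mice 1 and 2, as described with the other genes of that pattern. The protein products work as a dimer. As deposited, Xrcc5 was the only one of the 31 members for which I-PpoI mouse 3 exceeded every control. The share of all genes that did so was not counted.

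Of the kinases, Chek2, the effector downstream of Atm, had 2.91, 2.72 and 2.26 FPKM in the controls and 0.623, 0 and 1.10 in the I-PpoI mice. The groups did not overlap (log2 fold change -1.27, SE 0.40, limma adjusted p = 0.124), on 3, 0 and 44 fragments in the I-PpoI mice. Atm, the kinase that signals breaks, had 1.99, 0.639 and 2.20 FPKM against 0.482, 0 and 1.51. Control 2 was lower than I-PpoI mouse 3, so its groups overlapped (log2 fold change -0.69, SE 0.51, limma adjusted p = 0.297). Atr, the kinase of single-stranded DNA, had 1.25, 0.580 and 0.979 against 0.581, 0.152 and 0.635 FPKM, with the same overlap. Chek1, its effector, had 0.174, 0.123 and 0.369 FPKM in the controls and 0.404, 0.772 and 0.0971 in the I-PpoI mice, where 3, 3 and 6 fragments allow no order.

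Among recombination genes, Rad52 had 3.32, 2.45 and 2.51 FPKM in the controls and 1.41, 0.830 and 1.98 in the I-PpoI mice, without overlap (log2 fold change -0.66, SE 0.34, limma adjusted p = 0.163). Fancd2, which marks stalled forks and crosslinks, had 0.226, 0.188 and 0.305 FPKM against 0, 0 and 0.0284, or 29, 21 and 41 fragments against 0, 0 and 3. The 3 fragments of I-PpoI mouse 3 came from a library of 13324303, so this low value does not rest on the shallow libraries alone. Nuclear coding genes held only 50.1% of that library, against 79.5 to 88.8% of a control library. Brca2, a mediator of recombination, overlapped between groups, at 0.141 to 0.311 FPKM in the controls and 0.226 to 0.262 in the I-PpoI mice. Bard1 and Palb2, the partners of Brca1 and Brca2, overlapped between groups, as did Brca1, and none of the 3 exceeded 0.661 FPKM in any library.

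For 4 members, both I-PpoI mice 1 and 2 stood above the other 4 libraries. Rad54l, a motor protein that helps a broken strand invade its homologue, had 0.185, 0.369 and 0.329 FPKM in the controls, 37.8, 21.5 and 0.0682 in I-PpoI mice 1, 2 and 3. In fragments these were 23, 40, 43, 467, 139 and 7. The 2 shallow libraries thus hold more Rad54l fragments than any deep one, and I-PpoI mouse 3 holds the fewest (log2 fold change 2.92, SE 1.30, limma adjusted p = 0.138). Trp53bp1, which steers breaks toward end joining, had 4.47, 2.83 and 4.09 FPKM in the controls and 22.2, 14.9 and 2.38 in the I-PpoI mice (log2 fold change 1.18, SE 0.73, limma adjusted p = 0.222). Xrcc6 (Ku70) had 3.19, 3.00 and 2.87 against 14.6, 12.0 and 2.15 FPKM (log2 fold change 1.10, SE 0.63, limma adjusted p = 0.197). Chek1 was the fourth, on 3 fragments in each. As deposited, I-PpoI mouse 3 was below every control for Rad54l, Trp53bp1 and Xrcc6. Of all tested genes, 21.5% had the same pattern of I-PpoI mice 1 and 2 above the other 4 libraries. The share was 10.3% over the 11644 nuclear coding genes tested, beside 3 of the 19 tested members.

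The 3 of these that were tested share exon sequence with a gene on the opposite strand. Rad54l (chromosome 4, 116094264 to 116123690, minus strand, mm10) shares 1184 exonic bases, 15.4% of its exon length, with Lrrc41, which had 12.1, 14.5 and 11.2 FPKM in the controls and 8.90, 1.93 and 6.57 in the I-PpoI mice. Trp53bp1 (chromosome 2, 121193281 to 121271407, minus strand) shares 2130 bases (15.0%) with Tubgcp4, which was high in the same libraries, at 4.90, 2.82 and 4.09 FPKM against 21.02, 11.9 and 2.57. Xrcc6 (chromosome 15, 81987835 to 82040085, plus strand) shares 344 bases (7.69%) with Desi1, at 12.0, 11.4 and 10.7 FPKM against 3.77, 2.63 and 5.55. So a member and its partner were both high in 1 of these pairs, and in the other 2 the member was high where the partner was low.

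Among the nuclear coding genes that passed the filter, the share with this pattern differed by exon overlap. Exons on the opposite strand overlapped at least 5% of exon length in 2298 of them. Of these, 34.1% (783) were above the other 4 libraries in both I-PpoI mice 1 and 2. The share was 13.4% where the overlap was under 5%, 3.59% where an opposite gene lay only within 5 kb, and 1.45% of 3717 genes with none. Some genes, such as Rad54l, passed the filter only through I-PpoI mice 1 and 2, which can raise these shares. The part that fragments from the opposite strand have in the high values of Rad54l, Trp53bp1 and Xrcc6 was not tested.

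Some models on the strand opposite a member were high in the same 2 libraries. Exons on the opposite strand overlap 12 of the 31 members, through 13 models (Lrrc41, Tubgcp4 and Desi1 included). Of these models, 7 were higher in I-PpoI mice 1 and 2 than in all other libraries: 5 of 6 that do not code for protein and 2 of 7 that do. Gm42529 is among them on 1 and 3 fragments. That pattern was seen in 21.5% of all tested genes and 10.3% of nuclear coding genes tested. The 13 models were not filtered, and the share over all models that do not code for protein was not counted. H2afx (chromosome 9, 44334694 to 44336077, plus strand) is a single-exon gene of 1384 bases with the 141-base model Gm44335 wholly inside it on the minus strand. Gm44335 had 5.27, 10.6 and 11.7 FPKM in the controls and 416, 288 and 2.13 in the I-PpoI mice. The short model took 94 fragments and H2afx 26 in I-PpoI mouse 1. These counts were 34 and 2 in the library of I-PpoI mouse 2, and 12 and 334 in control 1. Suv39h2, a coding gene that overlaps 3.83% of the exons of Dclre1c, had 0.154, 0.371 and 0.187 FPKM in the controls and 8.62, 4.33 and 0.306 in the I-PpoI mice. Dclre1c itself was at 0.535 FPKM in I-PpoI mouse 1, inside its control range. H2afx itself had 11.7, 1.72 and 6.40 FPKM in I-PpoI mice 1, 2 and 3, below every control in each. It was lower in I-PpoI mouse 3, where Gm44335 was at 2.13 FPKM, than in I-PpoI mouse 1. A relation between the strands was not tested.

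**Figure D4:**
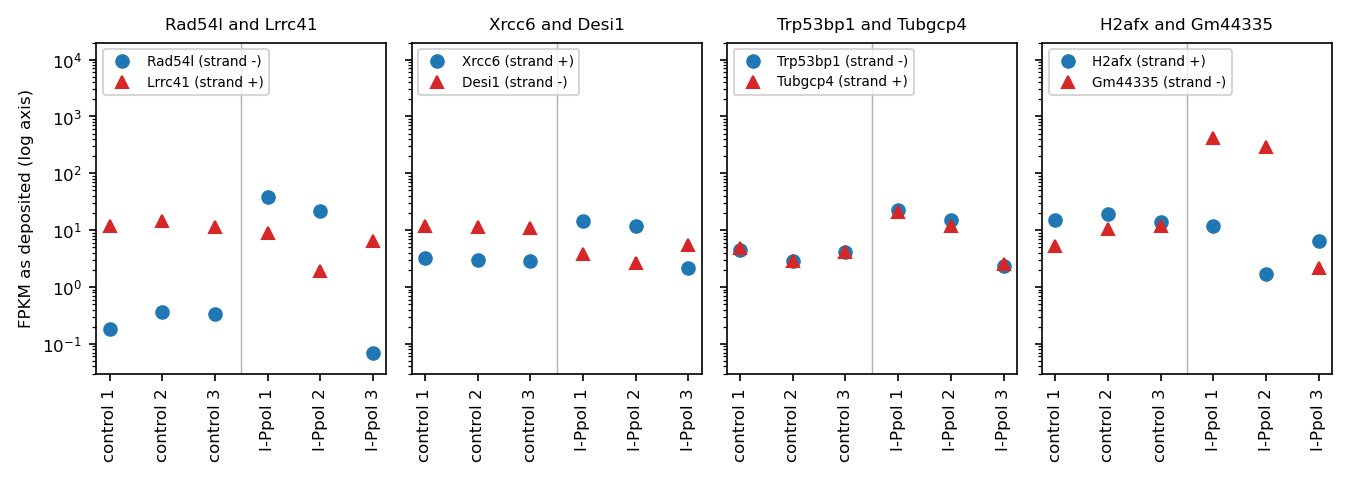
Each panel sets a member (blue circles) beside the gene model on its opposite strand (red triangles), with the FPKM of the 6 libraries on a log axis. Rad54l, Trp53bp1 and Xrcc6 are high in I-PpoI mice 1 and 2, at 12.0 to 37.8 FPKM, and Gm44335 inside H2afx reaches 416 and 288 FPKM there.

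Restricting the genes to those without an opposite-strand neighbour within 5 kb of an exon left 8 members, of which Parp1, Rnf168, Xrcc5, Rif1 and Nhej1 passed the filter. Limma on median-of-ratios scaled values called 0 of these 5 and 0.0% of the 3717 genes of this kind, with 0 of the 5 members at an unadjusted p below 0.05. Of the 5, 3 were below 0 and 2 above. Rnf168 lay farthest from 0, with a log2 fold change of -0.60 (SE 0.29, limma adjusted p = 0.485), and Parp1 was at 0.14 (SE 0.28). In FPKM as deposited, limma called 1 of them, Rnf168, where 39.1% of these genes were called lower. Rnf168 was thus below 0 on both scales and called on 1.

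I-PpoI mouse 3 had a depth and strand pattern like the controls, and 48.2% of its fragments were mitochondrial against 8.83 to 18.3% in the controls. As deposited, it was below every control for 19 of the 31 members (14 of the 19 tested), as it was for 70.7% of tested genes. It was above every control for Xrcc5 alone, and the share of all genes above every control was not counted. Of 13025 genes, 90.4% had a log2 fold change below 0 in I-PpoI mouse 3 against the controls as deposited. Its nuclear coding genes held 50.1% of fragments, against 79.5 to 88.8% in the controls. After each library was rescaled to a common FPKM total over nuclear coding genes, a choice made after seeing the data, limma called 0 of the 19 members tested in I-PpoI mouse 3 against the controls, and 0.668% of 13025 genes. This fit assumes that the lone I-PpoI library varies like the controls. The members then had a median of 0.08, with 14 above 0 and 5 below. Over all genes in that fit the median was 0.0012, with 49.8% below 0.

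On that scale I-PpoI mouse 3 was above every control for 9 of the 31 members, as it was for 22.7% of tested genes, and below every control for 7, against 22.3%. The 9 were Xrcc5, Xrcc6, Rif1, Nhej1, Atm, Dclre1c, Palb2, Brca2 and Brca1, and the 7 were H2afx, Xrcc4, Chek2, Rnf8, Bard1, Rad54l and Fancd2. Of the 9, Dclre1c, Palb2, Brca2 and Brca1 were below the filter, as were Rnf8, Bard1 and Fancd2 of the 7. The shares of 22.7% and 22.3% cover only genes that passed it. Xrcc5 had 4.499, 4.08 and 4.53 scaled FPKM in the controls and 8.21 in I-PpoI mouse 3, above all 3. Its log2 fold change of 0.78 (SE 0.24, limma adjusted p = 0.461) was the only one of the 19 with an unadjusted p below 0.05, and it did not pass the adjustment. H2afx had 13.1, 14.8 and 13.4 scaled FPKM and 9.24 in I-PpoI mouse 3, the farthest below 0 at -0.53 (SE 0.24, limma adjusted p = 0.836). Xrcc4 had 3.51, 3.25 and 2.98 against 2.24, and Chek2 2.54, 2.10 and 2.15 against 1.59, so both stayed under all controls. Mre11a at 2.45 and Rnf168 at 4.49 lay inside the control ranges of 1.68 to 3.16 and 4.05 to 6.92, as did Parp1 at 9.28 within 7.09 to 9.99. Trp53bp1 at 3.44 was inside its control range of 2.19 to 3.91, and Xrcc6 at 3.10 stood just above its 2.31 to 2.79. Rad54l at 0.0985 and Fancd2 at 0.0410 scaled FPKM stayed below all controls, on 7 and 3 fragments. The proximal tubule list was above 0 for 9 of 9 genes in this fit, with 3 of them called, and the endothelial list was below 0 for 10 of 10 with 0 called; their part in the members' values was not tested.

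Control mouse 2 set much of the spread within the control group, and its levels differed from the other controls with exon length. Atm in control 2 was 0.306 times the mean of controls 1 and 3, Dclre1c 0.329 times, Prkdc 0.347 times and Rif1 0.464 times. At the other end, Rnf8 was 1.59 times, Exo1 1.55 times, Rad54l 1.44 times and H2afx 1.32 times that mean. The median ratio was 0.483 for the 12 members with at least 8 kb of exon and 0.838 for the 19 shorter ones. Rnf8 and Exo1 were exceptions, above 1 with more than 8 kb of exon. Over 11418 coding genes with at least 30 control fragments the medians were 0.703 (1976 genes) and 1.06 (9442 genes). Spearman's rho of the ratio with exon length was -0.46 over the members and -0.61 over those genes, which all share the same 3 libraries. The large kinases Atm, Prkdc and Atr thus owed their wide control spread to 1 library, and their groups overlapped through it. The reason for the length pattern was not tested.

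**Figure D5:**
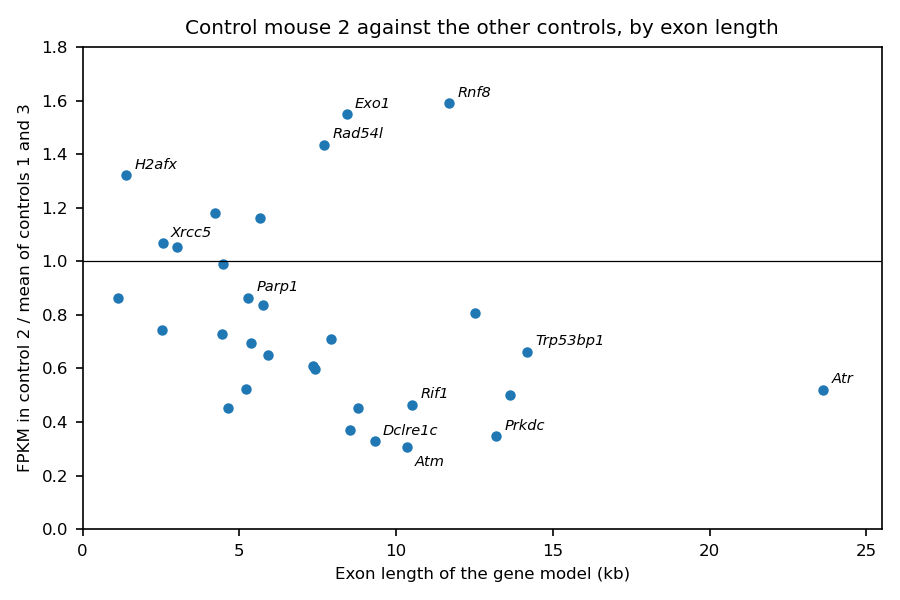
Each point is 1 of the 31 members, with exon length in kilobases on the horizontal axis and the FPKM of control mouse 2 divided by the mean of controls 1 and 3 on the vertical axis. Long genes such as Atm (0.306) and Prkdc (0.347) lie low and the short H2afx (1.32) lies above 1, with Rnf8 (1.59) and Exo1 (1.55) as long genes that lie high.

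Beyond the 31 members, 138 other genes of repair, checkpoint and cohesin were read from the same fit. Of these, 111 were tested and 0 were called by limma, with 42 at an unadjusted p below 0.05, beside 36.8% of all tested genes. Their log2 fold changes were below 0 for 90 and above 0 for 21, with a median of -0.74. Over all tested genes 71.6% were below 0 with a median of -0.65, and over protein-coding genes alone 84.6% with a median of -0.78. All 21 above 0, of the 111 tested, were higher in I-PpoI mice 1 and 2 than in the other 4 libraries. Of 11644 nuclear coding genes tested, 10.3% had that pattern. Among the 21, 17 have at least 5% of their exons overlapped on the opposite strand, an overlap counted in 28 related genes. Rad9a, a subunit of the checkpoint clamp, had 11.3, 15.3 and 10.8 FPKM in the controls and 222, 172 and 5.34 in the I-PpoI mice. It shares the pattern of Rad54l.

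Lists of the other repair routes lay mostly below 0 as deposited. With median-of-ratios scaling 3 of them lay mostly above 0, namely alternative end joining (5 of 7), the Fanconi list (10 of 15) and the chromatin list (14 of 24). Of 12 tested genes of end joining, 9 were below 0, and Ppp4c and Prpf19 were the most abundant. Of 7 tested genes of alternative end joining, 6 were below 0, led by Xrcc1, Parp2 and Parp3. Parp2, a relative of Parp1, had 7.23, 6.25 and 6.26 against 1.72, 1.32 and 3.97 FPKM, with a log2 fold change of -1.26 (SE 0.37, limma adjusted p = 0.124). Of 21 tested genes of recombination, 15 were below 0, and Sfr1, Sem1 and Swi5 were the most abundant. Of 15 tested Fanconi genes, which include the member Palb2 among the 20 listed, 11 were below 0, with Faap20 and Usp1 highest. The chromatin list had 23 of 24 below 0, led by Chd4, Babam1 and Nudt16l1, and the other checkpoint genes 13 of 19, led by Rad9a, Tipin and Timeless. Cohesin and its relatives, which hold sister chromatids together, were below 0 for 14 of 14, with 11 at an unadjusted p below 0.05 (36.8% of all tested genes) and a median of -1.17. With median-of-ratios scaling 13 of 14 were below 0 and 0 passed that p, and in I-PpoI mouse 3 on the common nuclear coding total 11 of 14 were above 0, with a median of 0.11. Rad21, a cohesin subunit, had 60.4, 44.6 and 52.2 FPKM against 18.3, 8.46 and 29.0 (log2 fold change -1.59, SE 0.47, limma adjusted p = 0.124).

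Readouts of the p53 response, which lies downstream of Atm and Chek2, were below 0 for 8 of 11 tested genes. Cdkn1a, the cell cycle inhibitor p21, had 16.4, 23.0 and 26.7 FPKM in the controls and 10.003, 4.70 and 14.6 in the I-PpoI mice, with no overlap (log2 fold change -1.19, SE 0.45, limma adjusted p = 0.129). Mdm2, the ligase that degrades p53, had 11.4, 7.59 and 7.78 against 4.42, 3.05 and 4.98 FPKM, and Trp53 itself 16.0, 19.6 and 16.3 against 10.3, 4.43 and 10.5. All 3 were lower in every I-PpoI mouse, as were 45.1% of tested genes. Phlda3 and Bax, the most abundant of the list, overlapped between groups. Of 12 tested proliferation genes 11 were below 0, led by Pcna, Mcm3 and Mcm6. Mki67, the marker of cycling cells, had 1.10, 1.43 and 1.52 FPKM in the controls and 1.61, 0.593 and 0.828 in the I-PpoI mice, which overlapped. In I-PpoI mouse 3 on the common nuclear coding total, 7 of the 11 tested p53 readouts and 3 of the 11 tested proliferation genes were above 0, and limma called 0 of either list.

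As deposited, 7 of the 10 endothelial markers were lower in every I-PpoI mouse than in every control, as were 45.1% of tested genes. The other 3 overlapped. Eng, a marker chosen here after its values were seen, had 763 FPKM in I-PpoI mouse 1, above the 608 to 688 of the controls. Cdh5 (VE-cadherin) had 328, 266 and 327 FPKM in the controls and 199, 65.0 and 149 in the I-PpoI mice, and Pecam1 (CD31) 256, 197 and 237 against 113, 41.6 and 104. Both were without overlap, with log2 fold changes of -1.29 (SE 0.47, limma adjusted p = 0.127) and -1.52 (SE 0.46, limma adjusted p = 0.124). The 10 endothelial markers had a median of -1.58, beside -0.71 for the tested members. Umod, of the distal nephron, had 92.2, 123 and 142 FPKM against 28.9, 62.6 and 97.0. Markers of podocytes summed to 661 to 1360 FPKM in the controls and 429, 149 and 338 in the I-PpoI mice, and those of distal nephron to 197 to 263 against 113, 136 and 159. Mural cell and fibroblast markers summed to 600 to 801 against 284, 312 and 380, and lymphocyte markers to 35.1 to 55.9 against 16.2, 7.87 and 10.8. Macrophage markers summed to 17.99 to 176 against 74.8, 198 and 188, and platelet and erythroid markers to 219 to 858 against 98.4, 189 and 195. Itgam, Cd3d, Nkg7 and Ppbp were at 0 in I-PpoI mice 1 and 2, and no other marker was at 0 in any library. How far the cell content of each library sets the level of the members was not tested.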

How the data were processed

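Per the labels' protocols, RNA of CD31-sorted kidney cells of 6 mice was sequenced in paired reads of 100 cycles. The authors deposited FPKM per gene, and the submitters' processing notes name DESeq2 1.28.13 and the builds mm10 and GRCm38. How reads were aligned and counted, and on which strand, is not given in the sources used here. Genes averaging at least 1 FPKM were fitted on log2(FPKM + 1) with limma 3.58.1 (R 4.3.3, trended prior, group only) and adjusted by Benjamini-Hochberg over all genes at 0.05. Fold changes on this scale understate low genes. The step was tested on simulated data. FPKM times exon length of GENCODE M21 gave whole fragments (within 0.05) for 98.5 to 98.6% of values under 1000 fragments, and recovered totals were 834149 to 16954480. FPKM does not suit count models, so the planned count test was not run, and voom used median-of-ratios library sizes in place of TMM. The members, related lists and markers were chosen with earlier results of these data known. Named were all 31 members, the 3 highest of each related list, and Trp53, Cdkn1a, Mdm2, Mki67, Cdh5, Pecam1, Lrp2 and Umod; Ddx3y, Xist and the neighbours were named after their values were seen. Some genes of this rule are not reported here. Strand-clear genes are nuclear coding genes whose exons lie over 5 kb from any opposite-strand gene. The replicate numbers were checked as pairs: deviations of same-numbered mice correlated at 0.09, 0.06 and -0.02 over all tested genes, and at 0.27, 0.20 and 0.19 over strand-clear genes. Alternatives covered pseudocounts, filters, scalings, variance models, the block and each library left out.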

Additional observations from a re-analysis of the deposited data

Results flagged for a closer look

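Of 6 models that overlap a member on the opposite strand and do not code for protein, 5 exceeded every control in I-PpoI mice 1 and 2. They lie outside the comparison of the members. Of all tested genes, 21.5% were above the other 4 libraries in both of those mice. Gm44335, inside H2afx, had 416 and 288 FPKM there, against 5.27 to 11.7 in the controls and 2.13 in I-PpoI mouse 3. Gm16794, opposite Atr, had 9.73 and 6.11 FPKM, against 0.151 to 0.288 in the controls. 1700065D16Rik, also opposite Atr, had 2.58 and 2.05 FPKM, against 0, 0 and 0.0203. Gm50069, opposite Rbbp8, had 4.48 and 7.07 FPKM, against 1.20 to 1.71. Gm42529, opposite Brca2, had 0.841 and 4.83 FPKM on 1 and 3 fragments, and was listed at 0 in the other 4 libraries.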

How the results depend on the processing

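The count of 0 members and 0 related genes called held under both other pseudocounts, both other filters, median-of-ratios, quantile and nuclear coding scaling, coding genes only, a robust prior, voom and the replicate block. On a common FPKM total limma called 6 members, all lower, and 45 of 111 related genes, 43 of them lower. There 31.8% of all genes were called lower. With array weights it called 10 members (3 higher, 7 lower) and 53 of 111 related genes, where 45.6% of all genes were called. Leaving out 1 library gave 0 to 11 members and 0 to 66 related genes. Both upper values came without I-PpoI mouse 3, with 3 members higher and 8 lower, where 56.4% of all genes were called. In strand-clear genes 1 member, Rnf168, was called as deposited, and 0 under the other settings; the replicate block called 0 members there too. By fragments, 6 of the 10 highest members remained. Single members changed sign in 15 cases, and the cause was not tested. With median-of-ratios scaling, Nbn was at 0.25 and Rad50 at 0.22. With voom, Nbn was at 0.26, Mdc1 0.15, Xrcc5 0.59, Rad50 0.40, Rad52 0.14, Rif1 0.15, Nhej1 0.26, Atm 0.23 and Rbbp8 0.048. With I-PpoI mouse 3 alone, Xrcc5 was at 0.14, Trp53bp1 -0.49, Xrcc6 -0.35 and Atm 0.0046. The fits with edgeR and with TMM were not run, since the unit is FPKM. Depth limits I-PpoI mice 1 and 2, where the median member had 8 and 3 fragments.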
